A study of Mus musculus with 2 samples.

Results

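*Impact* (ENSMUSG00000024423.5) was examined in RNA-seq signal of mouse embryo fibroblasts (MEFs) as 1 of 1718 annotated genes that lay wholly inside the deposited stretches of signal, 939 of them protein coding. The gene was chosen by name, and the annotated gene was taken with 20 kb on either side, on both strands. The cells came from reciprocal crosses. JXO MEFs had a JF1 mother and a TgOG2 father, and OXJ MEFs had a TgOG2 mother and a JF1 father. JF1 is an inbred strain of Japanese origin, and TgOG2 mice carry an EGFP transgene under the *Pou5f1* promoter, so in either cross 1 parent is of that line. Each cross is represented by 1 library from MEFs of female 13.5 dpc embryos, so no value below has a replicate, no p-value was computed between crosses, and cross cannot be told apart from embryo, culture or library.

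*Impact* encodes a protein that binds GCN1 and thereby restrains GCN2, the kinase that phosphorylates the initiation factor eIF2α when amino acids run short. The mouse gene is imprinted and is known to be expressed from the paternal allele, with a maternally methylated CpG island in its first intron. The tracks do not mark bases that differ between JF1 and OG2, and which parental allele the RNA came from was not analysed here. The paper reports paternal *Impact* RNA in both MEF lines, so it was mostly of OG2 sequence in JXO and JF1 sequence in OXJ. Differences between JXO and OXJ at *Impact* therefore cannot be told apart from allele sequence or its alignment to the mm9 genome.

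Total RNA depleted of ribosomal RNA was sequenced from both ends with the strand retained, so spliced and unspliced RNA were both present. Levels are mean scaled depth (the average number of reads on a base, set to 50000000 aligned reads a library), where 1 read counts 0.652 in JXO and 0.579 in OXJ. For JXO the tracks held 5837225 reads, 7.61% of those aligned, and for OXJ 5785447 reads, 6.70%. Ranges in parentheses are 95% intervals, exact Poisson for levels, computed on pairs of reads taken as 200 bases. They cover counting error only, and they are approximate for exons shorter than a pair, which hold only part of each pair. The fibroblast label could be checked on 3 of 10 fibroblast markers. The collagen gene *Col1a2* had a level of 583 in JXO and 388 in OXJ, and the matrix proteoglycan genes *Dcn* and *Lum* had 22.9 and 18.9 in JXO and 25.9 and 15.5 in OXJ. Of the neural markers, *Nes*, which cultured fibroblasts can also express, had 339.9 in JXO and 155 in OXJ, while *Sox2* had 1.27 and 1.22. Blood, endothelial, epithelial and muscle markers lay outside the stretches and were not analysed here.

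In mm9 *Impact* occupies bases 13130761 to 13151457 of chromosome 18 and is transcribed from the (+) strand. GENCODE M1 annotates 1 transcript with 11 exons over 20.697 kb, with 3432 exon bases, of which 954 are coding and 2393 belong to the 3′ UTR. Exon 11, from 13149002 to 13151457, is 2456 bases long and makes up 71.6% of the exon bases. The signal on the gene's own strand had 4 parts in both libraries: high over the exons, far lower over the introns, at or above the level of the introns over 16.4 kb upstream of the annotated start, and lowest over 9.86 kb past the annotated end.

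**Figure D1:**
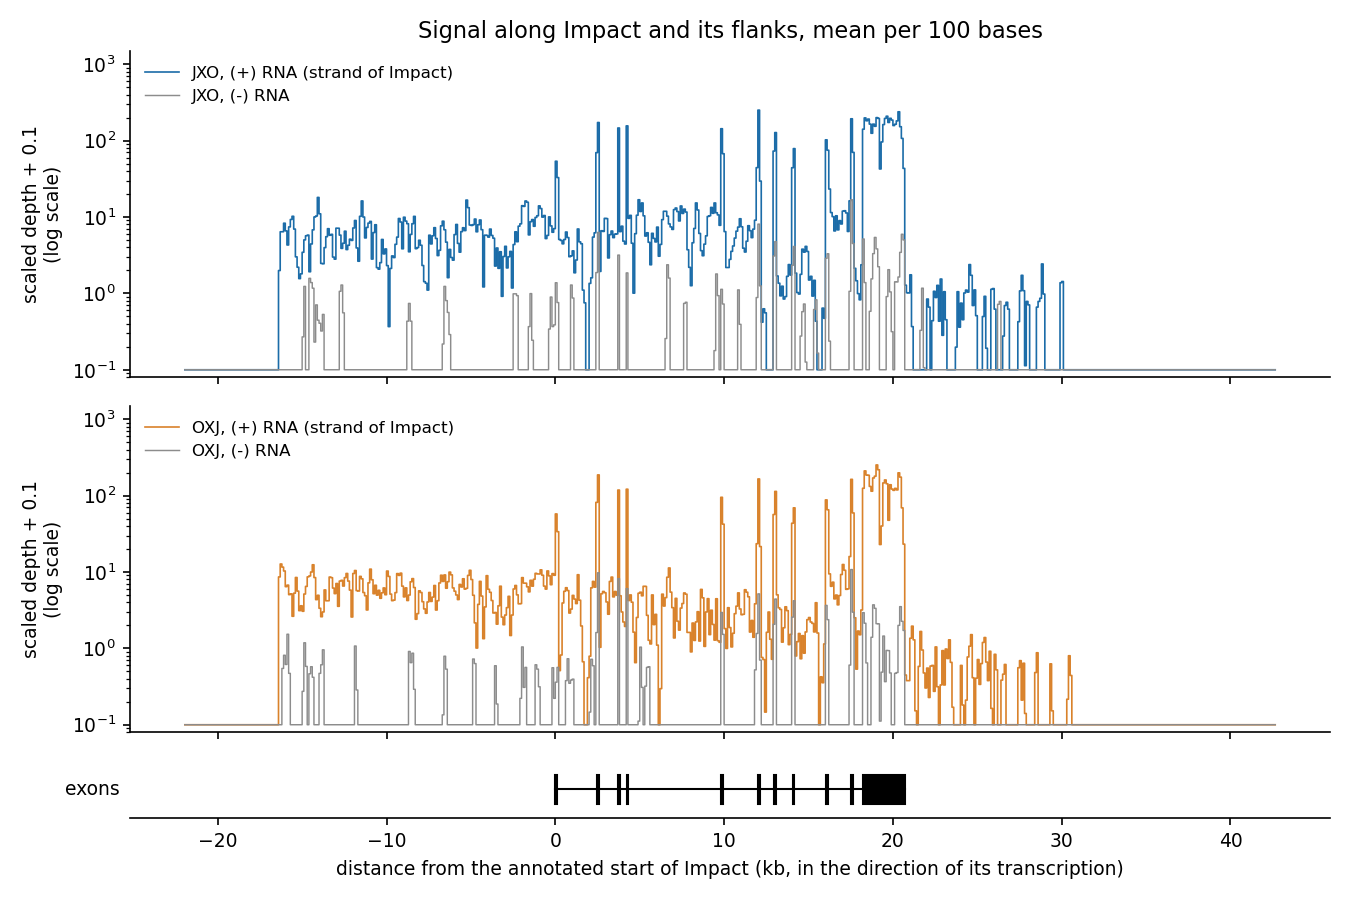
Mean scaled depth plus 0.1 per 100 bases (log axis) against the distance from the annotated start of *Impact* in kb, JXO above OXJ; coloured lines are (+) RNA, grey lines (-) RNA, and black boxes mark the 11 exons. In both libraries the (+) signal begins 16.4 kb before the annotated start, runs without a break of more than 66 bases up to it, and ends within 9.86 kb past the gene.

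*Impact* was among the higher protein-coding genes of the deposited stretches, which hold only part of each library. Its exons had a level of 171.9 in JXO (166.9 to 177.0) and 145.3 in OXJ (141.0 to 149.7), rank 67 and rank 49 of the 939 protein-coding genes, whose medians were 3.96 in JXO and 3.31 in OXJ. The coding parts had 209.6 in JXO (199.2 to 220.4) and 175 in OXJ (166 to 184). The 3′ UTR had 161 in JXO (156 to 167) and 137 in OXJ (132 to 142). Coding parts were thus higher than the 3′ UTR in either library, by more than the counting error.

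The exons differed among themselves, with the same lowest and highest member in both libraries. Exon 1 was the lowest, at 68.1 in JXO (52.4 to 87.1) and 74.5 in OXJ (58.9 to 93.0), and exon 3 the highest, at 267 in JXO (219 to 322) and 218 in OXJ (177 to 265). In JXO, exons 4, 5 and 6 had 244, 238 and 249, while exons 2, 7 and 10 had 185, 203 and 203 and exons 8, 9 and 11 had 159.8, 179 and 163. In OXJ, exon 2 had 205 and exon 4 had 189.8, exons 7 and 10 had 169.9 and 170.2, exons 5, 6, 8 and 9 had 155, 164, 149.9 and 155, and exon 11 had 139. The interval of exon 1 did not overlap that of any other exon in either library. The intervals of exons 3, 4, 5 and 6 overlapped each other in JXO, as did those of exons 2, 3 and 4 in OXJ.

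Within exon 1 the signal climbed steeply towards its 3′ edge. The first annotated base carried 14 reads in JXO and 22 in OXJ. The last base carried 221 in JXO and 285 in OXJ. The next base, the first of intron 1, had 8 reads in JXO and 6 in OXJ. The first base of exon 2 carried 226 reads in JXO and 302 in OXJ, near the depth at the end of exon 1. The low mean of exon 1 is therefore no measure of how often it was joined to exon 2. The 100 bases before the annotated start already had a level of 6.94 in JXO and 8.95 in OXJ, so the start of the annotated transcript did not stand out as a first covered base.

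The introns carried 5.55 in JXO (5.16 to 5.97) and 3.26 in OXJ (2.98 to 3.56), so exons were 31.0 times as high as introns in JXO and 44.6 times in OXJ. Across 311 protein-coding genes the median of this ratio was 49.1 in JXO and 44.3 in OXJ, and *Impact* stood at percentile 30.5 in JXO and 50.8 in OXJ. Intron 9 had the highest level, 10.5 in JXO (8.64 to 12.7) and 7.35 in OXJ (5.88 to 9.07). Its first 200 bases had 19.99 in JXO and 10.8 in OXJ, against 8.88 in JXO and 6.76 in OXJ over the rest. Intron 6 had the lowest, 0.221 in JXO (0.0147 to 0.966) and 1.11 in OXJ (0.485 to 2.17).

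Intron signal was not even along the gene. In JXO introns 1 to 5 had 3.54, 6.07, 5.80, 8.35 and 5.72, and introns 6, 7, 8 and 10 had 0.221, 1.40, 1.59 and 1.61. In OXJ introns 1 to 5 had 3.48, 4.94, 2.99, 3.18 and 2.92, and introns 6, 7, 8 and 10 had 1.11, 2.57, 1.40 and 2.20. By value, introns 1 to 5 lay above introns 6, 7, 8 and 10 in both libraries, with the larger step in JXO, and intron 9 broke the order. In OXJ this order was not beyond counting error. Introns 3 (1.51 to 5.31) and 5 (2.18 to 3.83) overlapped introns 7 (1.62 to 3.88) and 10 (1.13 to 3.88). In JXO the intervals of introns 1 (2.73 to 4.53) and 10 (0.677 to 3.23) overlapped.

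**Figure D2:**
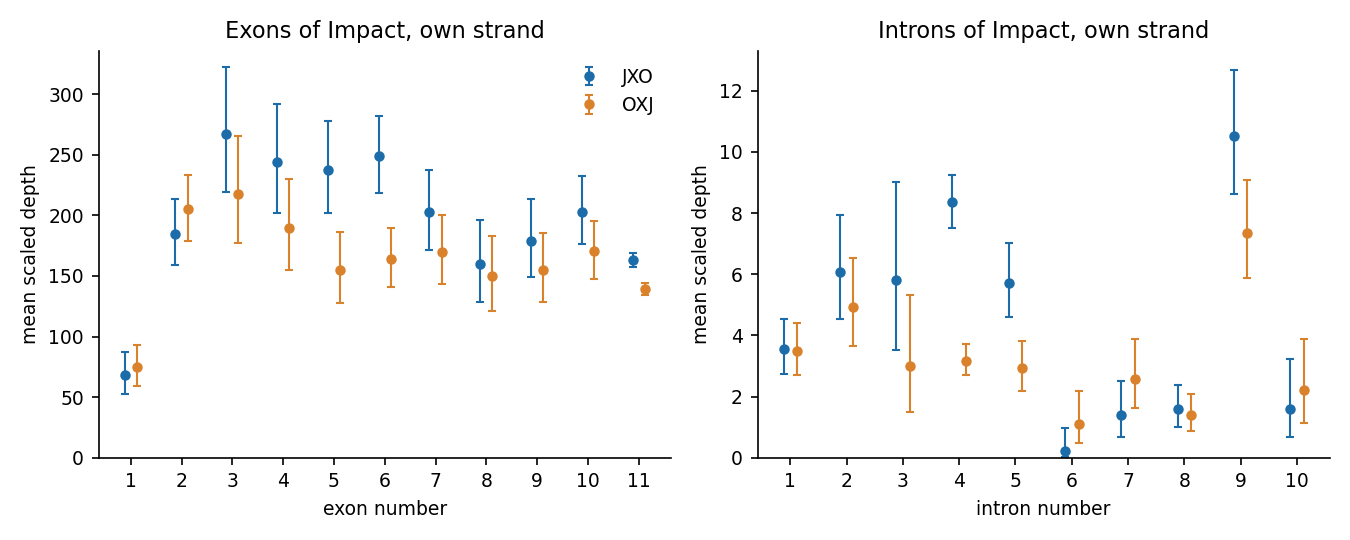
Mean scaled depth on the own strand of each of the 11 exons (left) and 10 introns (right) of *Impact*; JXO points stand left of OXJ points and bars are 95% counting intervals. Exon 1 is lowest and exon 3 highest among exons, and among introns the largest difference in level between the libraries is at intron 4, with 8.35 in JXO and 3.18 in OXJ.

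Signal fell sharply at every annotated splice site. Between the 10 exon bases and the 10 intron bases at the 20 internal edges, the level fell by a median of 97.1% in JXO (90.4 to 98.8% over the edges) and 97.6% in OXJ (89.95 to 99.2%). The medians of 315 genes in JXO and 313 genes in OXJ were 98.1% and 97.8%. The smallest fall was at the 3′ edge of exon 9 in both libraries, the edge that borders the high start of intron 9. There the exon side had 170.6 in JXO and 154 in OXJ, against 16.4 in JXO and 15.5 in OXJ on the intron side.

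The 20 largest changes in depth between neighbouring bases of the gene were at exactly these 20 annotated edges in either library. A read that spans a junction ends its block at 1 edge and takes it up again at the next, so the fall at an exon's end and the rise at the start of the following exon should be of like size where exons are joined in order. From exon 3 to exon 4 the fall was 397 reads and the rise 405 in JXO, and 350 and 361 in OXJ. From exon 8 to exon 9 they were 247 and 245 in JXO, and 228 and 229 in OXJ. Over all 10 junctions falls and rises differed by at most 7.11% in JXO, at exons 4 and 5, and 3.82% in OXJ, at exons 9 and 10. The steps lay between 213 and 405 reads in JXO and between 228 and 361 in OXJ. The tracks do not pair the blocks of a read, so a junction between distant exons was not observed directly.

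The main feature outside the annotation was upstream. (+) strand signal began at 13114383 in JXO, 16.378 kb before the annotated start, and at 13114369 in OXJ, 16.392 kb before it. These positions differ by less than 1 read length. Between there and the gene the RNA had a mean level of 6.02 (5.60 to 6.46) in JXO and 6.10 (5.70 to 6.52) in OXJ. Coverage was nearly complete, with 98.7% of bases in JXO and 99.9% in OXJ, and the longest gap was 66 bases in JXO and 5 bases in OXJ. The highest depth was 35 reads in JXO and 28 in OXJ.

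Of the 20 bins of 1 kb upstream, 17 had own-strand signal in both libraries, with levels of 2.27 to 11.02 in JXO and 3.72 to 8.52 in OXJ, and no read lay in the 3 farthest bins. Among 161 genes with no other gene on the same strand in those 20 kb, small RNA genes such as 7SK disregarded, the share with signal in at least 16 of the 20 bins in both libraries was 0.621%, which is *Impact* itself. The cut of 16 lies just under the 17 bins of *Impact* and was set with earlier results known, so this share is not independent support. Its mean level over the 20 kb, 4.93 in JXO and 5.002 in OXJ (4.59 to 5.30 in JXO and 4.67 to 5.35 in OXJ), was the highest of the 161 genes in either library, whose medians were 0.0208 in JXO and 0.0228 in OXJ. In JXO the first place was not beyond counting error, since *Mogat2*, a monoacylglycerol acyltransferase gene named after its values were seen, had 4.76 in JXO and 2.41 in OXJ, with signal in 5 bins. In OXJ taken alone, 2 other genes had signal in at least 17 bins. As a percent of exon level, the upstream level of *Impact* was 2.87 in JXO and 3.44 in OXJ, beside medians of 0.0242 and 0.0366. On that scale *Impact* was not the highest, since *Mogat2* had 7.88 in JXO and 6.54 in OXJ, and further genes were higher in OXJ.

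**Figure D3:**
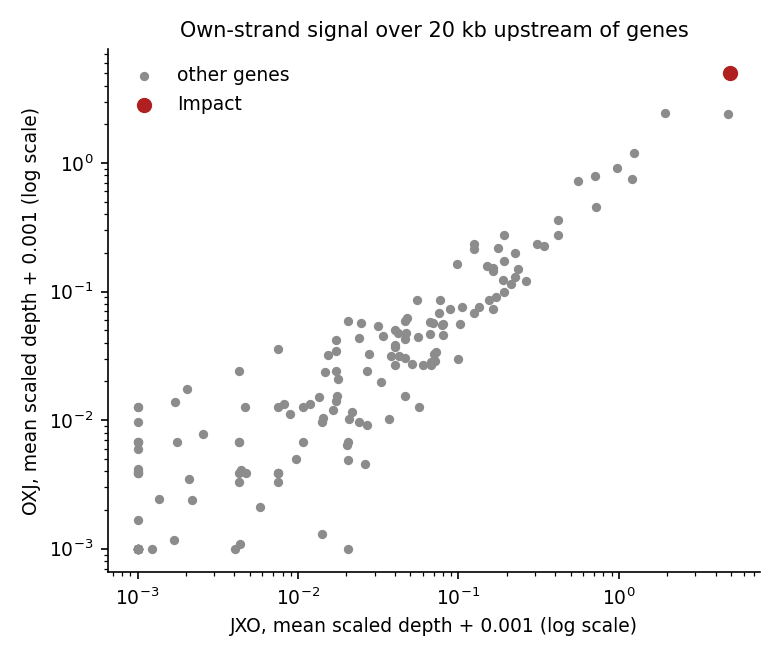
Mean scaled depth plus 0.001 on the own strand over the 20 kb before the annotated start of 161 genes, JXO on the horizontal and OXJ on the vertical axis (both log). *Impact*, the large point, is highest on both axes, at 4.93 in JXO and 5.002 in OXJ.

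The last 2 kb before the annotated start had 9.92 in JXO and 8.01 in OXJ, against 5.48 in JXO and 5.84 in OXJ over the rest of the upstream signal. There was no steady trend before that, since the first 300 bases had 5.03 in JXO and 11.2 in OXJ and the bin 4 kb before the start had 3.82 in JXO and 3.72 in OXJ. The level upstream was 1.08 times that of the introns in JXO and 1.87 times in OXJ, and 28.6 times below the exons in JXO and 23.8 times in OXJ. The largest change between neighbouring bases upstream was 11 reads in JXO and 5 in OXJ. With at most 35 reads in JXO and 28 in OXJ on a base, steps of the size seen at the exons of the gene could not occur there, so exon edges upstream cannot be judged at this depth. Whether the upstream RNA and the *Impact* transcript are 1 molecule was not tested.

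The upstream RNA lay almost wholly on 1 strand. Its (+) share was 98.1% in JXO (exact Clopper-Pearson interval 96.9 to 98.9%) and 98.2% in OXJ (97.1 to 99%), with a (-) level of 0.117 in JXO and 0.109 in OXJ. The annotated feature inside it is a copy of 7SK, a small nuclear RNA that holds the elongation factor P-TEFb, on (+) from 13120008 to 13120314. This copy had 4.75 in JXO and 5.68 in OXJ, beside 4.72 in JXO and 6.15 in OXJ in its flanks, so it did not rise out of the signal around it. The next gene upstream, the sterol-binding protein gene *Osbpl1a*, is on the (-) strand with its annotated start 30.4 kb from *Impact*, and had 12.7 in JXO and 8.76 in OXJ on (-). Over the 14.0 kb between that start and the first upstream base, 2 (+) strand reads were found in JXO and 1 in OXJ.

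The mm9 sequence of the locus has 3 CpG-rich segments. Windows of 250 bases with over 50% G and C and an observed to expected CpG ratio over 0.6 make up 0.785% of chromosome 18, counted end to end. The segments of the locus were found with overlapping windows, which can find more, so that share is not a like measure for them. Within intron 1, from 13131221 to 13133160, such windows joined to 1940 bases with 131 CpGs and 59.5% G and C. Over these bases the level was 3.28 in JXO and 3.83 in OXJ, near the 3.54 in JXO and 3.48 in OXJ of the whole intron. The window of 250 bases from 1750 bases past the annotated start, with 67.6% G and C, had 0.130 in JXO and 0.125 in OXJ, the lowest of intron 1 in both, while the other CpG-rich windows of the intron had 1.84 to 5.70 in JXO and 0.973 to 6.03 in OXJ. A smaller CpG-rich segment of 330 bases, with 15 CpGs and 53.9% G and C, ran from 13114211 to 13114540 and so held the first base of the upstream signal of either library. The third, 250 bases from 13148221 to 13148470, overlaps exon 10 and had 110.8 in JXO and 94.1 in OXJ. No such window lay wholly within 500 bases of the annotated start of *Impact*, although the segment of intron 1 begins at base 461 of the gene, whereas 69.1% of the 517 protein-coding genes of chromosome 18 had at least 1. Taken whole, the 500 bases on either side of the first upstream base had an observed to expected ratio of 0.423, below 0.6. Those around the annotated start had 0.363. These are matches in composition and say nothing of methylation, which was not measured here.

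Exon 11 was covered throughout in JXO and over 99.2% of its bases in OXJ. Its windows of 100 bases had a median of 177 in JXO and 148 in OXJ, with 1 sharp dip at the same place. Bases 1001 to 1100 had 35.7 in JXO and 4.38 in OXJ, 8.16 times higher in JXO. The other 23 windows had JXO to OXJ folds of 0.784 to 2.46. The mm9 sequence has runs of 14 and 22 T from bases 991 and 1015 and a run of 10 A from base 1073, and no other run of at least 10 equal bases in the exon. The part of these runs in the dip, or in the difference between libraries, was not tested. Without these 100 bases the log2 exon ratio of JXO over OXJ was 0.23, against 0.24 with them.

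**Figure D4:**
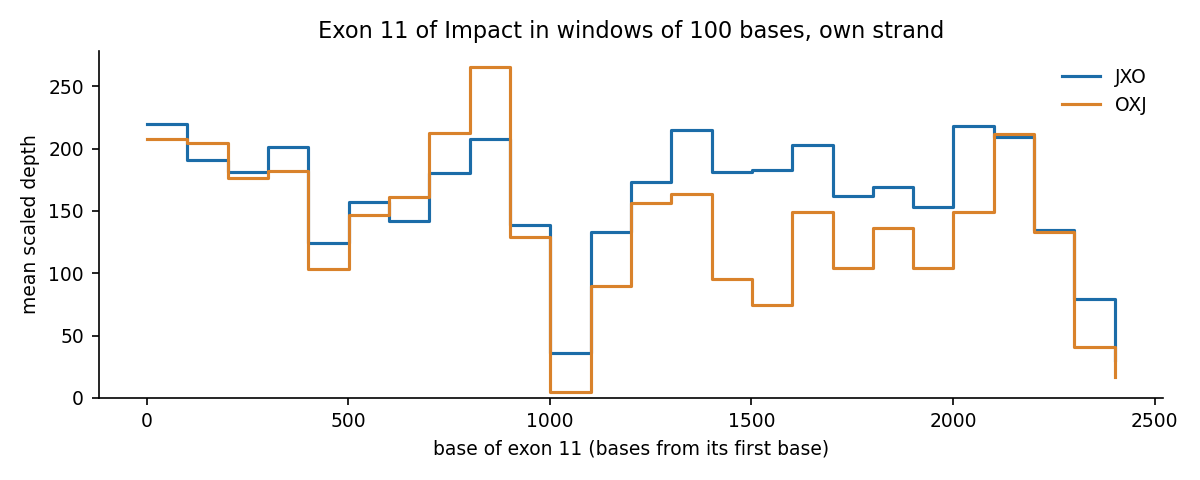
Mean scaled depth of exon 11 in windows of 100 bases against the base of the exon, for JXO and OXJ. Both lines dip between bases 1001 and 1100, to 35.7 in JXO and 4.38 in OXJ, and both fall over the last windows towards the annotated end.

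The signal ended close to the annotated 3′ end. The last 50 annotated bases had 28.8 in JXO and 15.2 in OXJ, and the next 50 bases had 0.899 in JXO and 0.127 in OXJ. Over 300 bases on either side the level before the end was 102.7 times that after it in JXO and 307.5 times in OXJ. The hexamer AATAAA, the common polyadenylation signal, begins 22 bases before the annotated end, and it is the 1 sense match in exon 11, where the other strand has 5. The last 50 bases of the sense strand hold AATAAA in 53.4% of the protein-coding genes of chromosome 18, and the other strand of those bases in 7.16%.

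Past that end a thin (+) signal went on. It reached 9.40 kb in JXO and 9.86 kb in OXJ, at a level of 0.433 in JXO (0.298 to 0.609) and 0.335 in OXJ (0.224 to 0.483), 397 times below the exons in JXO and 434 times in OXJ. All of the first 10 bins of 1 kb had signal in both libraries, a pattern shown by 9.26% of 216 genes with no same-strand gene in those 10 kb. The mean level of *Impact* over the 10 kb ranked 93 in JXO and 92 in OXJ among the 216, so this tail was not unusual in size. No read lay in the next 10.1 kb in either library, where 0 reads allow a level of up to 0.0474 in JXO and 0.0421 in OXJ. *Hrh4*, the histamine H4 receptor gene, begins 14.0 kb past *Impact* on the same strand and had no read in the window in JXO or OXJ.

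The exons of *Impact* had 98.1% of their signal on their own strand in JXO (97.7 to 98.5%) and 98.0% in OXJ (97.6 to 98.4%). A share of at least 90% in both libraries was seen in 97.4% of 340 protein-coding genes, so *Impact* was not unusual among them. These genes had an own-strand exon level of at least 10 in both libraries, a filter that itself favours a high own-strand share. The medians of those genes were 97.3% in JXO and 96.4% in OXJ. The (-) level of *Impact* was 3.29 in JXO and 2.93 in OXJ over its exons and 0.0811 in JXO and 0.0375 in OXJ over its introns. As a share of the signal it was alike in both, at 1.88% in JXO and 1.98% in OXJ over exons and 1.44% in JXO and 1.14% in OXJ over introns. It was highest at exon 10 in JXO, with 16.3, and at exon 3 in OXJ, with 15.2, and no gene is annotated on (-) there. Counted by bases covered rather than by reads, the share on the own strand was 58.6% in JXO and 57.4% in OXJ, since thin (-) signal reached many bases.

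Between the crosses, exons of *Impact* were 1.18 times as high in JXO as in OXJ, a log2 ratio of 0.24 (0.18 to 0.30, exact conditional binomial interval). This is under 2-fold, a change shown in either direction by 7.88% of 584 protein-coding genes. The median gene had 0.50, and 88.2% of genes were above 0, so *Impact* stood at percentile 25.2. With the median gene set equal the direction turned, to -0.26, and with equal totals of the tracks it was 0.058. Relative to the median gene 3.42% of genes differed by at least 2-fold, and *Impact* did not. With 1 library of each, the difference has no replicate check.

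By value, the ratio changed along the locus. The upstream signal had -0.020 (-0.16 to 0.12), exon 1 had -0.13 (-0.63 to 0.37) and exon 2 had -0.15 (-0.44 to 0.14), whose intervals all include 0. Exons 5 and 6 had 0.62 (0.26 to 0.98) and 0.60 (0.32 to 0.89), and exon 11 had 0.23 (0.16 to 0.31). The intervals of the upstream signal, exon 11 and exon 6 did not overlap, and the upstream signal was the lowest and exon 6 the highest of these 3.

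The introns together had 0.77 (0.60 to 0.94), above the exons. Above 0 were 86.5% of 414 genes with a median of 0.35, and *Impact* stood at percentile 92.5. The difference of introns minus exons was 0.51 on the log2 scale with 0.1 added to the levels, beside a median of -0.17 over 409 genes, at percentile 95.1. Much of this rested on intron 4, the longest at 5558 bases, with 8.35 in JXO (7.50 to 9.26) and 3.18 in OXJ (2.69 to 3.72), a log2 ratio of 1.39 (1.12 to 1.68). JXO was higher in 24 of its 27 windows of 200 bases, against 29 of 55 windows of the other introns. Neighbouring windows can share reads and are not replicates, so these counts only describe where the difference lay. Without intron 4, an alternative added once the values were known, the introns had 0.36 (0.14 to 0.57), at percentile 50, and introns minus exons had 0.10, at percentile 79.2. Intron 4 had the highest ratio of the introns, so leaving it out had to lower these values. The other genes kept all their introns, so these percentiles set unlike measures side by side. Intron 5 had 0.97 (0.46 to 1.49) and intron 9 had 0.52 (0.10 to 0.94), and the intervals of the remaining introns included 0.

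**Figure D5:**
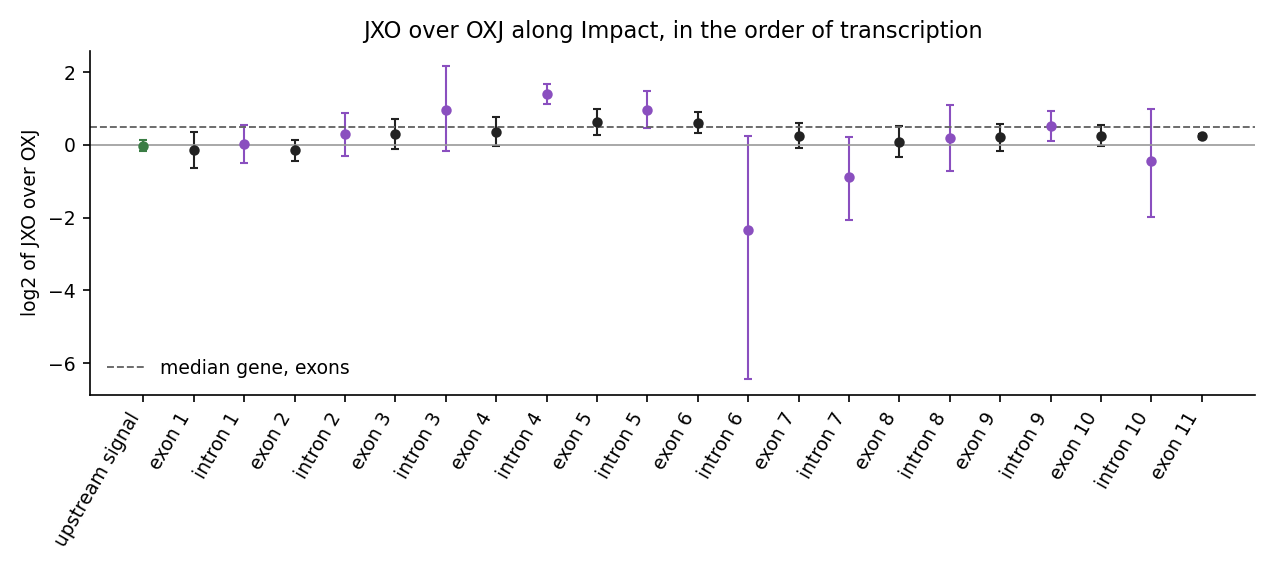
Log2 of JXO over OXJ for the upstream signal, each exon (black) and each intron (purple) in the order of transcription, with 95% counting intervals; the dashed line is the median gene at 0.50. Intron 4 stands highest at 1.39, the upstream signal lies at -0.020, and intron 6 has the widest interval because it holds few reads.

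No gene of amino acid starvation signalling, the pathway in which IMPACT acts, could be set beside it: 0 of 31 annotated genes of that list lay wholly inside the stretches, and they were not analysed here. Of 32 listed paternally expressed imprinted genes, 27 were annotated and 23 lay inside. *Impact* was the third highest of these in JXO and the second highest in OXJ. *Igf2*, a fetal growth factor, had 765 in JXO and 464 in OXJ. *Slc38a4*, an amino acid transporter, had 339 in JXO and 141 in OXJ, and *Mest*, a member of the hydrolase fold family, had 169 in JXO and 106 in OXJ. The counting intervals of *Impact* and *Mest* overlapped in JXO, as did those of *Impact* and *Slc38a4* in OXJ. *Peg10*, a retrotransposon-derived gene, had 58.4 in JXO and 69.7 in OXJ. *Peg12*, *Nnat*, a neuronal proteolipid gene, and *Mcts2* had 31.7, 30.4 and 27.9 in JXO and 18.6, 16.4 and 18.6 in OXJ, and the other 15 lay at or below 26.0 in JXO and 18.9 in OXJ.

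Of the 20 paternally expressed genes with a ratio, 18 were above 0 and 12 above the median gene, with a median of 0.62, and 2 differed by at least 2-fold. These shares are near the 88.2% above 0 and the 7.88% at 2-fold or more of all genes. *Impact* had the 17th highest of these ratios. Among members with introns measured, *Impact* had the highest intron level in both libraries. The second highest was that of *Nespas*, an antisense transcript of the *Gnas* locus, with 2.88 in JXO and 1.75 in OXJ, and *Igf2* had 0.961 in JXO and 0.847 in OXJ.

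By the 4 log2 levels of exons and introns in JXO and OXJ, the genes most like *Impact* among 787 were *Morf4l1*, a chromatin protein gene, at a distance of 0.36, *Ube3a*, a ubiquitin ligase gene, at 0.49, *Fkbp11* at 0.61, *Nup153*, a nuclear pore gene, at 0.63, and *Nap1l4*, a histone chaperone gene, at 0.64. The median distance was 8.502. All 5 had higher exon ratios than *Impact*, from 0.61 for *Nap1l4* to 0.91 for *Ube3a*. *Impact* stood at percentile 25.2 of 584 genes, so most genes had higher ratios. The 5 were also chosen by the levels from which the ratio is computed.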

How the data were processed

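The authors aligned paired reads to mm9, allowing up to 10 loci a read; the submitters' processing notes name CASAVA 1.9 and TopHat 1.2.0. They deposited 4 tracks, 1 per strand and library, of log2 of 1 plus read depth scaled to 50000000 aligned reads. Values were turned back into depth, which gave whole reads at every base (largest deviation 3.31e-08 reads). Tracks named forward held (-) strand RNA: read so, 719 of 800 genes in JXO (89.9%) and 716 of 802 in OXJ (89.3%) were higher on their annotated strand. Covered bases at most 50 kb apart were merged, giving 618 stretches (63.7 Mb). Exons are of GENCODE M1; introns exclude exons of either strand. Genes entered ratios with at least 20 pairs of reads. Strand shares and falls at splice sites used protein-coding genes with an exon level of at least 10 in both libraries. The genes compared for their flanks also had at least that level in both libraries. Reads mapped to several loci can add signal in repeats.

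Genes named were *Impact*, genes within 20 kb, up to 8 members of each list and the 5 nearest by Euclidean distance (pseudocount 0.1). *Osbpl1a* was added after its values were seen. Gene, lists and measures were chosen with earlier results of these data known. Python 3.11.15, numpy 2.4.6, scipy 1.17.1 and matplotlib 3.10.9 were used, and sums and intervals were tested on simulated data. No test of the intervals on spliced exons shorter than a pair of reads is reported here. Exon 3, of 53 bases, was counted as 108.6 pairs in JXO, although up to 444 reads lay on a base. Overlap of intervals between single short exons is therefore only a rough guide. Alternatives changed the scale, bases, scaling, bins and edges.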

Additional observations from a re-analysis of the deposited data

How the results depend on the processing

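Of 59 alternatives, 32 stayed within the range set for the value given, which was the counting interval for levels, ratios and strand shares. For the signal beyond the ends (500-base bins, at least 2 reads) the range was an exact binomial interval on bins, 62.1 to 96.8% upstream in either library. For the fall at splice sites it ran from the lowest to the highest edge. All alternatives for these last results stayed inside, but such wide ranges are hard to leave. The exon level moved with means of log2 values, medians, coding parts and the 3′ UTR, to 154, 179.9, 209.6 and 161 in JXO and 118, 156, 175 and 137 in OXJ. The intron level moved with means of log2 values and medians, to 3.94 and 4.56 in JXO and 2.499 and 2.89 in OXJ, and without intron 4 to 4.22 in JXO. The exon to intron ratio became 39.2 with means of log2 values, 39.4 with medians, 37.8 with coding parts and 40.7 without intron 4 in JXO, and 53.8 with medians and 53.7 with coding parts in OXJ. The own-strand share by covered bases was 58.6% in JXO and 57.4% in OXJ. The log2 ratio of JXO over OXJ turned to -0.26 with the median gene set equal and to -0.020 for the upstream signal, and it moved to 0.058 with equal totals, 0.77 in introns, 0.36 in introns without intron 4 and 0.39 with means of log2 values. The causes were not tested. The upstream signal, single-base steps and settings without intron 4 or part of exon 11 were chosen after the data were seen. No paired analysis was possible because each cross has 1 library.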
